A study of Mus musculus with 12 samples.

Results

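The translation initiation and elongation factor genes were taken as every gene with a symbol beginning Eif or Eef and a number, leaving out the Eif4ebp genes, that was named alone by a probe set of the array. They numbered 50 of 12393 measured genes and were read by 110 probe sets, each of which reads 1 stretch of transcript. Where a gene had several probe sets, which was so for 28 of the 50, the one with the highest mean over the 12 arrays stood for the gene. Another 6 Eif or Eef probe sets named several genes each, the Eif3j copies among them, and were left out. No filter on low values was applied, so all 50 genes entered the counts below.

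Total RNA came from the white gastrocnemius, the part of the calf muscle made mostly of fast fibres, of male mice labelled C57BL/6 and generation F7. The mice were 14 weeks old and had been fasted overnight, which holds for both genotypes. Of the 12 Affymetrix MOE430A arrays, 6 came from mice without gamma3, a subunit of AMPK (AMP-activated protein kinase), and 6 from their wild type littermates, and the design text calls them biological replicates. The labels name no allele or construct for the knockout, and Prkag3, which encodes gamma3, was not analysed here, so the labels were not checked against the targeted transcript.

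In eukaryotes the eIF factors bring the small ribosomal subunit, the initiator tRNA and the capped mRNA together at the start codon. The eEF factors then deliver aminoacyl-tRNAs and move the ribosome along the mRNA. AMPK is known to restrain this work when cellular energy is low, through the kinase complex mTORC1 and through eEF2 kinase, and much of that control acts on the proteins by phosphorylation, which an array of transcripts does not read.

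Values are the authors' intensities on the log2 scale. Changes are differences of log2 means, knockout minus wild type, given with the standard error (SE) from limma over 6 against 6 arrays, and adjusted p-values are Benjamini-Hochberg values over all 22626 tested probe sets. The median intensity of an array was 132.5 to 139.8, and correlations between arrays were 0.991 to 0.997. The hybridisation times in the array records fall into 3 sets of 4 arrays, 2 of each genotype. They are called wash runs here, although the records do not name them as batches. Knockout arrays were on fluidics modules 1 and 2 and wild type arrays on 3 and 4 in runs 1 and 3, and the reverse in run 2. Within 1 run, genotype and module therefore cannot be told apart. All 8 fast fibre markers measured, such as Myh4, Actn3 and Ckm, lay above the array median, and their summed intensity was 112876 to 116084 in knockout and 109338 to 114785 in wild type. In a bulk sample, fewer cells of a type and less RNA per cell cannot be told apart.

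Differences between the genotypes were small in all 50 genes, and 0 passed an adjusted p of 0.05, where 0.0242% of all 12393 genes passed (limma, lowest adjusted p of the 50 = 0.707). Their changes ran from -0.14 to 0.19 on the log2 scale, with a median SE of 0.0567 and 95% intervals that together spanned -0.26 to 0.43. At an unadjusted p below 0.05 the count was 5 higher in knockout, against 3.37% of all genes, and 1 lower, against 2.86%. With the cage letter as a block the count was 8 higher, but the share of all genes in that fit was not taken. The 5 were Eef2, Eef1b2, Eef1d, Eef1akmt1 and Eif5a, and the 1 was Eif4e2. In 0 of the 50 did the 6 knockout arrays and the 6 wild type arrays not overlap, which was so for 0.371% of all genes. Altogether 32 of the 50 changes were above 0, or 64%, beside 47.4% of all genes, and their median was 0.031 beside -0.0043 for all genes. After a further quantile normalization 26 of the 50 were above 0 and the median was 0.0054, and the median was 0.015 without knockout 5 and 0.016 without wild type 3.

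The medians of the role groups lay on both sides of 0. Groups went by symbol, so the elongation group held Eef2k, Eef1e1, Eef1akmt1, Eef1aknmt and Eef2kmt beside the elongation factors themselves. All 10 elongation genes had a change above 0 (median 0.080), but 9 did under a further quantile normalization, in which Eef1a2 was at -0.0053, and 9 or 10 did with array weights or without 1 array, where Eef2kmt or Eef2k turned. Of the 11 eIF3 genes 9 had a change above 0 (median 0.062), or 8 under that normalization. The 2 genes of eIF5A and eIF6 also lay above 0. Of the 10 eIF4 genes 4 did (median -0.019), or 1 under that normalization, and of the 9 start codon genes 4 did (median -0.042), or 2 under it. Leaving out 1 array gave 1 to 6 eIF4 genes above 0 (median -0.038 to 0.0095, above 0 without knockout 4 or wild type 5) and 1 to 5 start codon genes (median -0.059 to 0.0042, above 0 without knockout 4). Without the elongation genes, 22 of the other 40 had a change above 0, and their median was 0.0046. No test of these groups against each other was made.

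**Figure D1:**
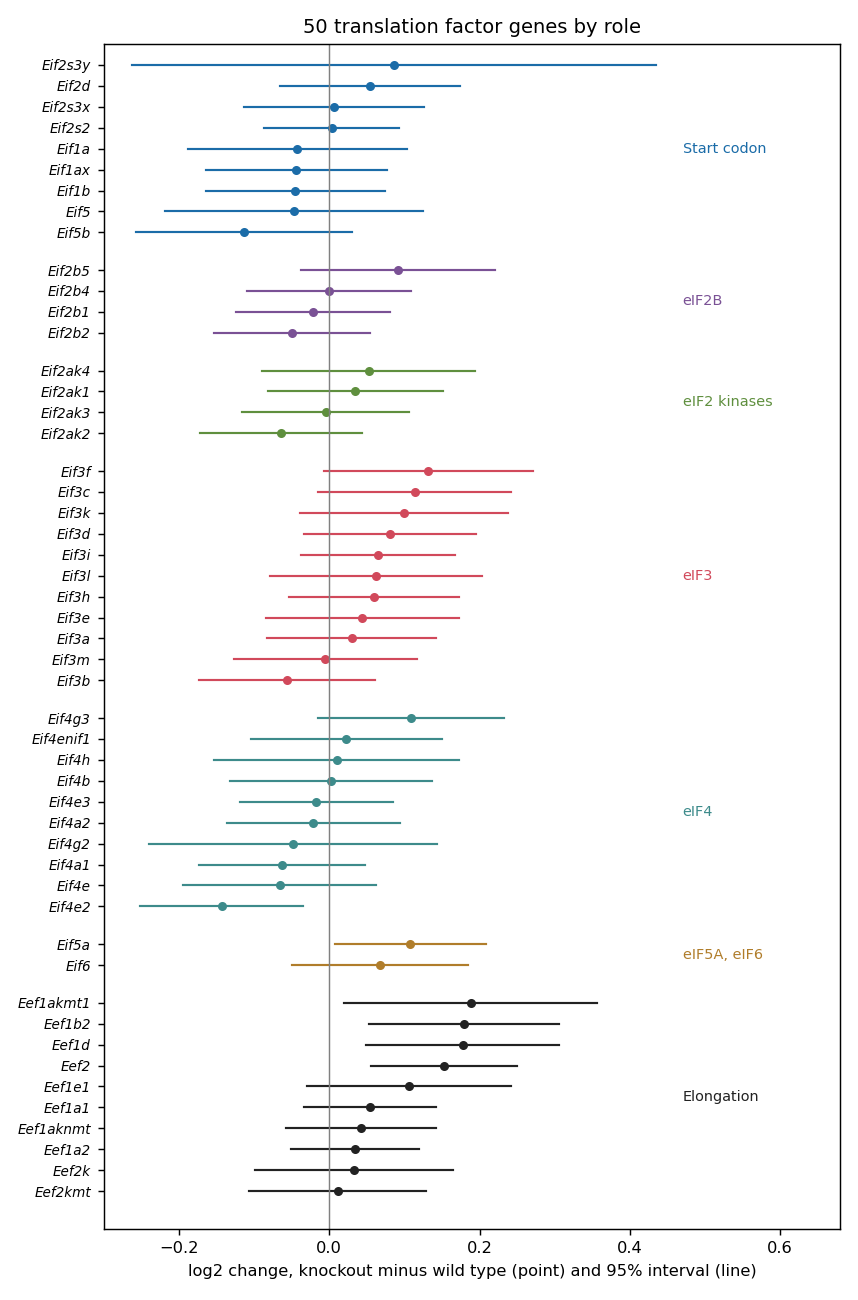
Log2 change of each of the 50 genes, knockout minus wild type, with its 95% interval, grouped by role (points, limma estimates over 6 against 6 arrays; lines, intervals). All 10 elongation genes lie right of 0 here, though Eef1a2, Eef2k and Eef2kmt turn under some alternatives, and the intervals of 5 genes lie wholly above 0 and that of Eif4e2 wholly below.

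Among the elongation factors, eEF2 is the GTPase that moves the ribosome by a codon after each peptide bond. Eef2 had a log2 intensity of 12.50 at the lowest, 12.62 at the median and 12.67 at the highest in knockout, against 12.35, 12.46 and 12.51 in wild type. Of the 6 knockout arrays 5 lay above every wild type array, and knockout 3, the lowest, lay below 2 of the wild type arrays. The means were 12.61 ± 0.0603 in knockout and 12.45 ± 0.0572 in wild type (SD, n = 6 each), a difference of 0.15 ± 0.0462 or 11.2% (limma, adjusted p = 0.707). In the 3 wash runs taken alone, with 2 arrays of each genotype, the difference was 0.17, 0.067 and 0.22. Its inhibitor is eEF2 kinase, which phosphorylates eEF2. Eef2k ranged from 8.34 to 8.74 in knockout, with a median of 8.55, against 8.48 to 8.59 in wild type, with a median of 8.53. The genotypes overlapped, with the 6 knockout arrays spread on both sides of the wild type ones (0.033 ± 0.0621, limma, adjusted p = 0.973). The sign of the Eef2k difference turned without knockout 5 (-0.0015).

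The eEF1 complex delivers aminoacyl-tRNA: eEF1A carries it, and eEF1B, with the subunits encoded by Eef1b2 and Eef1d, exchanges the guanine nucleotide on eEF1A. Eef1b2 had a lowest, median and highest log2 intensity of 9.67, 9.79 and 10.02 in knockout, against 9.56, 9.63 and 9.73 in wild type. Eef1d had 10.40, 10.52 and 10.81 in knockout, against 10.29, 10.37 and 10.46 in wild type. For both genes 5 knockout arrays lay above every wild type array, and knockout 2 alone lay within the wild type range. The differences were 0.18 ± 0.0598 for Eef1b2 and 0.18 ± 0.0607 for Eef1d (limma, adjusted p = 0.765 and 0.780). In the wash runs they were 0.11, 0.20 and 0.23 for Eef1b2 and 0.041, 0.17 and 0.32 for Eef1d. Of the 2 dimmer Eef1d probe sets, one differed by 0.16 ± 0.0996 and the other by -0.054 ± 0.0600, so the gene's probe sets did not share a sign.

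The carrier itself is encoded by Eef1a1, expressed in most tissues, and Eef1a2, the form that takes over in adult skeletal muscle. Eef1a1 had a lowest, median and highest value of 11.78, 11.81 and 11.89 in knockout, against 11.72, 11.77 and 11.81 in wild type. Eef1a2 had 13.55, 13.56 and 13.63 in knockout, against 13.50, 13.53 and 13.59 in wild type. All knockout arrays lay above the wild type median for both genes, but the genotypes overlapped. The differences, 0.054 ± 0.0415 for Eef1a1 and 0.034 ± 0.0404 for Eef1a2, came with 95% intervals of -0.03 to 0.14 and -0.05 to 0.12 (limma, adjusted p = 0.913 and 0.955). Eef1a2 had the narrowest SE of the elongation genes.

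Of the enzymes and partners of these factors, Eef1akmt1 encodes a lysine methyltransferase of eEF1A. It had a lowest, median and highest value of 7.74, 8.10 and 8.29 in knockout, against 7.75, 7.88 and 8.03 in wild type. The genotypes overlapped, since knockout 2 was the lowest of all 12 arrays while 4 knockout arrays lay above every wild type array. The difference was 0.19 ± 0.0798 (limma, adjusted p = 0.810), but it was -0.091 in wash run 1, against 0.36 and 0.29 in runs 2 and 3. Its 3 dimmer probe sets differed by 0.036, 0.11 and -0.029. Eef1e1, whose product belongs to the multi-tRNA synthetase complex, differed by 0.11 ± 0.0643. Eef1aknmt, a methyltransferase of eEF1A, differed by 0.042 ± 0.0473, and Eef2kmt, a lysine methyltransferase of eEF2, by 0.011 ± 0.0555. The sign of the last turned with array weights (-0.017) and in each fit without knockout 2, knockout 4, wild type 4 or wild type 6.

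**Figure D2:**
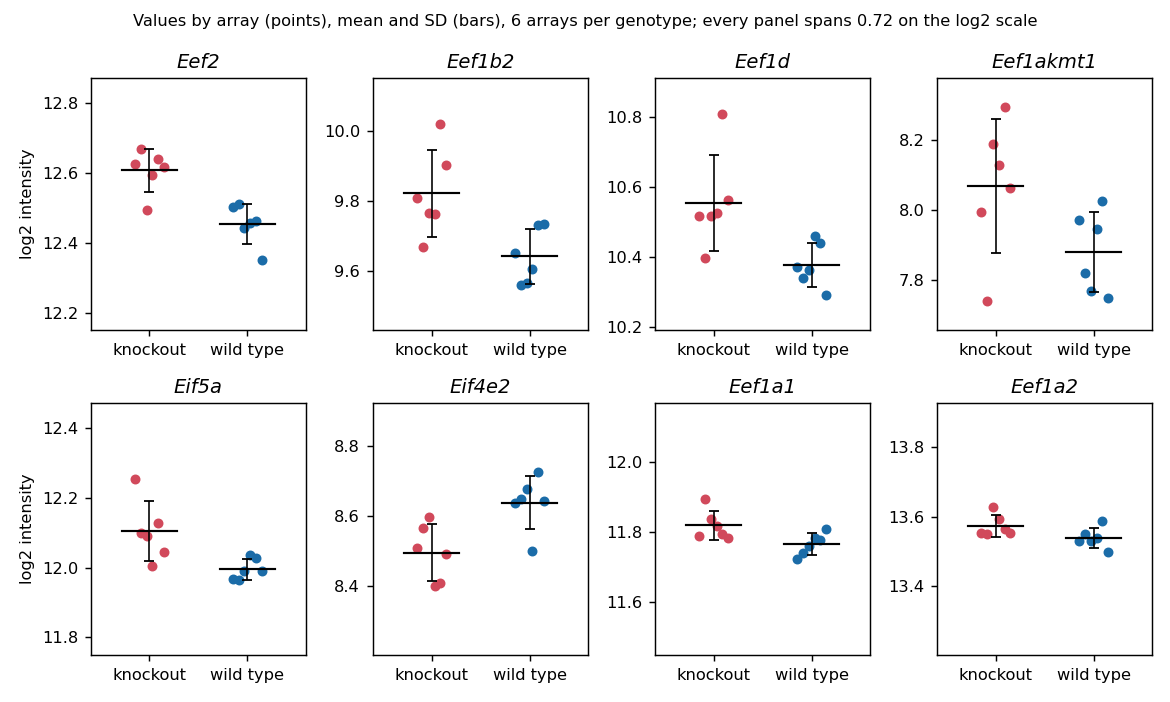
Log2 intensity on each array for 8 genes, with 6 knockout arrays left and 6 wild type arrays right in each panel (points, arrays; long bar, mean; error bar, SD). Every panel spans the same range of log2 units, and in the panels of Eef2, Eef1b2, Eef1d and Eif5a 5 knockout arrays lie above every wild type array, while the panels of Eef1a1 and Eef1a2 show smaller differences.

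When each gene was centred on its mean over the 12 arrays and the 10 elongation genes were averaged per array, the knockout arrays lay between -0.043 and 0.13 and the wild type arrays between -0.090 and 0.013. The averages were 0.049 ± 0.0553 in knockout and -0.049 ± 0.0354 in wild type (SD, n = 6 each), and 5 knockout arrays lay above every wild type array, with knockout 2 as the exception. The difference of the averages was 0.045, 0.12 and 0.13 in the 3 wash runs. Since the genes were chosen with results known, no p is given for this average. The 50 genes also shared high and low arrays within a genotype: knockout 5 was the highest of its genotype in 22 genes and knockout 2 the lowest in 21, while wild type 5 was the highest in 25 and wild type 1 the lowest in 15.

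**Figure D3:**
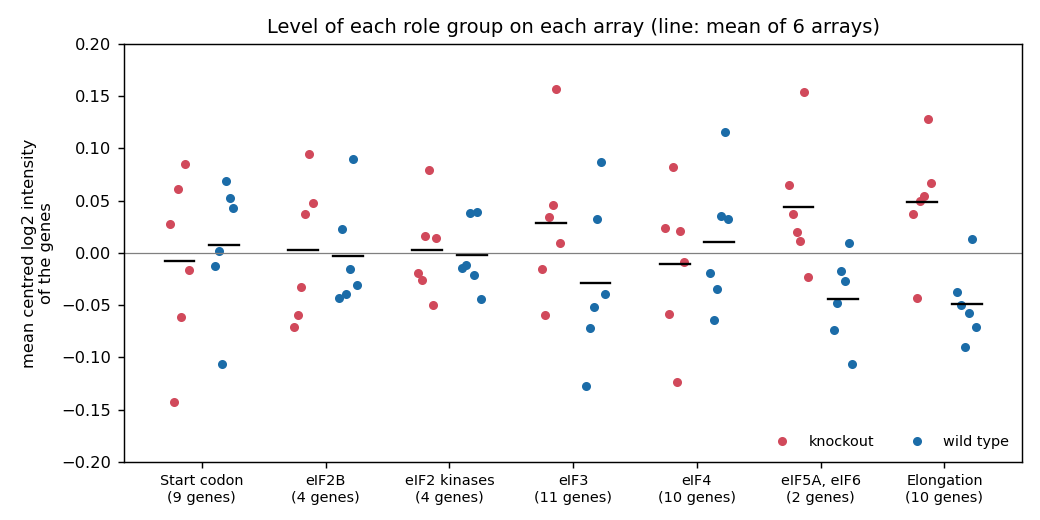
Mean centred log2 intensity of each role group's genes on each array, knockout left and wild type right within each group (points, arrays; bar, mean of 6 arrays). The genotypes overlap in every group; the elongation genes and the pair of eIF5A and eIF6 are the groups in which 5 of 6 knockout arrays lie above every wild type array.

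Markers of other cells were read beside these values, and 0 passed the threshold in any list. The 8 slow fibre markers measured, such as Myh7 and Tnni1, had changes below 0 in 8 of 8 (median -0.45), with a summed intensity of 2085 to 6900 in knockout and 2156 to 6880 in wild type. The median of the 8 was -0.30 in wash run 1, 0.48 in run 2 and -1.31 in run 3, so run 2 had the opposite sign. The 4 fat cell markers measured, Adipoq and Cidec among them, had changes above 0 in 4 of 4, with sums of 756.1 to 1119 in knockout and 529.1 to 959.2 in wild type. Their median was -0.056, 0.31 and 0.36 in the 3 runs. The 3 red cell markers measured lay below 0 in 3 of 3 (median -0.18), with sums of 429.3 to 526.6 in knockout and 480.3 to 641.9 in wild type. The 5 endothelial markers lay below 0 in 4 of 5 (median -0.054), with sums of 976.5 to 1155 in knockout and 1047 to 1271 in wild type. Of 3 Schwann cell markers 2 lay above 0, Pmp22 at 0.25 ± 0.0743, with sums of 1431 to 1743 in knockout and 1270 to 1565 in wild type. Changes above 0 numbered 1 of 5 fibroblast and 2 of 5 macrophage markers. Satellite cell and regenerating fibre markers lay above 0 in 5 of 7 (median 0.017), with sums of 758.5 to 839.0 in knockout and 743.9 to 824.6 in wild type. At an unadjusted p below 0.05 (limma), Pmp22, Cidec, Pdgfra, Cd74 and Cdh15 were higher and Kdr and Slc4a1 lower. Of all genes, 3.37% were higher and 2.86% lower at that level. No marker was at 0 on any array, as RMA intensities stay above 0. RNA quality, read as the log2 ratio between the 3' and 5' control probe sets, was -0.129 ± 0.082 in knockout and -0.142 ± 0.0311 in wild type (SD, n = 6 each). The part of these differences in the elongation gene values was not tested.

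eIF3 is the large scaffold that binds the small ribosomal subunit and recruits the mRNA, and 11 of its genes were measured. None had an unadjusted p below 0.05. Eif3f, a subunit whose degradation is known from wasting muscle, had the smallest p of them. Eif3f had a lowest, median and highest value of 11.08, 11.16 and 11.44 in knockout, against 10.96, 11.03 and 11.21 in wild type. All 6 knockout arrays lay above the wild type median, and the genotypes overlapped (0.13 ± 0.0659, limma, adjusted p = 0.846). Eif3c, a core subunit, had 10.81, 10.94 and 11.09 in knockout, against 10.68, 10.83 and 10.98 in wild type, and overlapped likewise (0.11 ± 0.0607, limma, adjusted p = 0.865). Eif3a, the largest scaffold subunit, had 10.07, 10.13 and 10.27 in knockout, against 10.01, 10.14 and 10.21 in wild type. Its genotypes overlapped almost fully (0.030 ± 0.0533), and its sign turned under a further quantile normalization (-0.0054).

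The other eIF3 genes ran from -0.056 for Eif3b to 0.10 for Eif3k. Probe sets of 1 eIF3 gene could differ in size. For Eif3e, which was named after its values were seen, the brightest probe set gave 0.044 ± 0.0609. The next probe set had a lowest, median and highest value of 10.56, 10.73 and 11.01 in knockout, against 10.51, 10.52 and 10.59 in wild type, a difference of 0.21 ± 0.0650 (limma, adjusted p = 0.707). A further one gave 0.20 ± 0.0871 and the dimmest 0.064 ± 0.0578. All 4 Eif3e probe sets therefore lay above 0, as did the 4 of Eif3a and the 2 of Eif3i. Those of Eif3c (-0.046 to 0.11), Eif3h (-0.016 to 0.060) and Eif3l (-0.097 to 0.062) lay on both sides of 0. The 2 of Eif3m lay below it. With the probe sets of each gene averaged, 8 of the 11 eIF3 genes had a change above 0, and Eif3l turned below it.

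**Figure D4:**
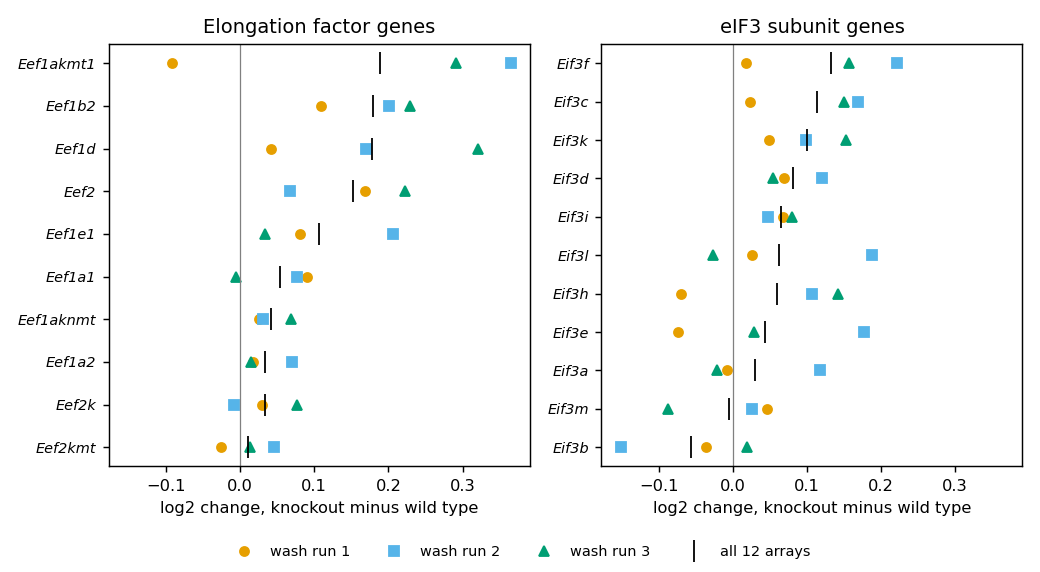
Log2 change, knockout minus wild type, of each elongation gene (left panel) and eIF3 gene (right panel) in each of 3 wash runs with 2 arrays per genotype (symbols) and over all 12 arrays (bars). In 6 of 10 elongation genes and 5 of 11 eIF3 genes all 3 symbols lie above 0, while Eef1akmt1 lies at -0.091 in run 1.

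The wash runs agreed in sign more in some genes than in others. Of the 50 genes, 14 had a change above 0 in all 3 runs, or 28%, beside 12.8% of all genes, and 7 had one below 0 in all 3, or 14%, beside 13.8%. The 14 held 6 elongation genes (Eef2, Eef1b2, Eef1d, Eef1a2, Eef1e1 and Eef1aknmt), 5 eIF3 genes (Eif3c, Eif3d, Eif3f, Eif3i and Eif3k), Eif4g3, Eif5a and Eif6. The 7 were Eif1a, Eif2b1, Eif2b2, Eif2ak2, Eif4a1, Eif4e2 and Eif4g2. The median of the 50 was -0.012 in run 1, 0.068 in run 2 and 0.022 in run 3, so run 1 had the opposite sign.

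eIF4 factors read the mRNA cap: eIF4E binds it, eIF4A unwinds the leader and eIF4G bridges to eIF3. Eif4e2, which encodes a cap-binding relative of eIF4E known to repress translation of bound mRNAs, was the 1 gene lower at an unadjusted p below 0.05. It had a lowest, median and highest value of 8.40, 8.50 and 8.60 in knockout, against 8.50, 8.65 and 8.72 in wild type. All 6 knockout arrays lay below the wild type median, and 5 wild type arrays lay above every knockout array, with wild type 4 as the exception. The means were 8.50 ± 0.0806 in knockout and 8.64 ± 0.0754 in wild type (SD, n = 6 each), a difference of -0.14 ± 0.0515 or -9.43% (limma, adjusted p = 0.781). In the wash runs it was -0.031, -0.16 and -0.23, and all 4 probe sets of the gene lay below 0, from -0.14 to -0.029.

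The cap binder and the helicases lay closer together between genotypes. Eif4e had 9.95, 10.18 and 10.31 in knockout, against 10.08, 10.24 and 10.35 in wild type (lowest, median and highest), with a difference of -0.066 ± 0.0610 (limma, adjusted p = 0.939). The 3 probe sets of Eif4e ran from -0.066 to 0.037, with 1 above 0. Eif4a1, the helicase, had 10.31, 10.38 and 10.40 in knockout, against 10.33, 10.41 and 10.62 in wild type. No knockout array lay above its wild type median, its 3 probe sets all lay below 0, and the difference was -0.062 ± 0.0522 (limma, adjusted p = 0.921). Eif4a2, a close copy of it, differed by -0.021 ± 0.0548, and its sign turned without knockout 4 (0.0089). Eif4g3, an eIF4G scaffold, had 10.57, 10.65 and 10.78 in knockout, against 10.42, 10.54 and 10.71 in wild type, with all knockout arrays above the wild type median (0.11 ± 0.0585, limma, adjusted p = 0.865).

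Eif4e3, a further eIF4E relative named after its values were seen, held the smallest unadjusted p of the 110 probe sets, in its dimmer probe set. There the lowest, median and highest values were 8.60, 8.75 and 8.92 in knockout, against 8.45, 8.53 and 8.61 in wild type. All knockout arrays but one lay above every wild type array, and the difference was 0.23 ± 0.0552 (limma, adjusted p = 0.561). The brighter probe set of the gene differed by -0.017 ± 0.0482 (limma, adjusted p = 0.982). The gene's probe sets thus lay on opposite sides of 0.

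Of the 28 genes with several probe sets, 11 had all of them on 1 side of 0 and 17 on both sides, and in 0 did opposed probe sets both reach an unadjusted p below 0.05. Over the 60 dimmer probe sets, 34 changes lay above 0, with a median of 0.019. At an unadjusted p below 0.05 there were 3 of them higher, beside 3.35% of all 22626 probe sets, and 0 lower, beside 2.69%. Of the 5 dimmer elongation probe sets, 3 lay above 0. Names of 7 of the 50 brightest probe sets carry the maker's mark for sequence shared with other transcripts, those of Eif1a, Eif2s3x, Eif3c, Eif3m, Eif4g2, Eif4h and Eif5a.

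**Figure D5:**
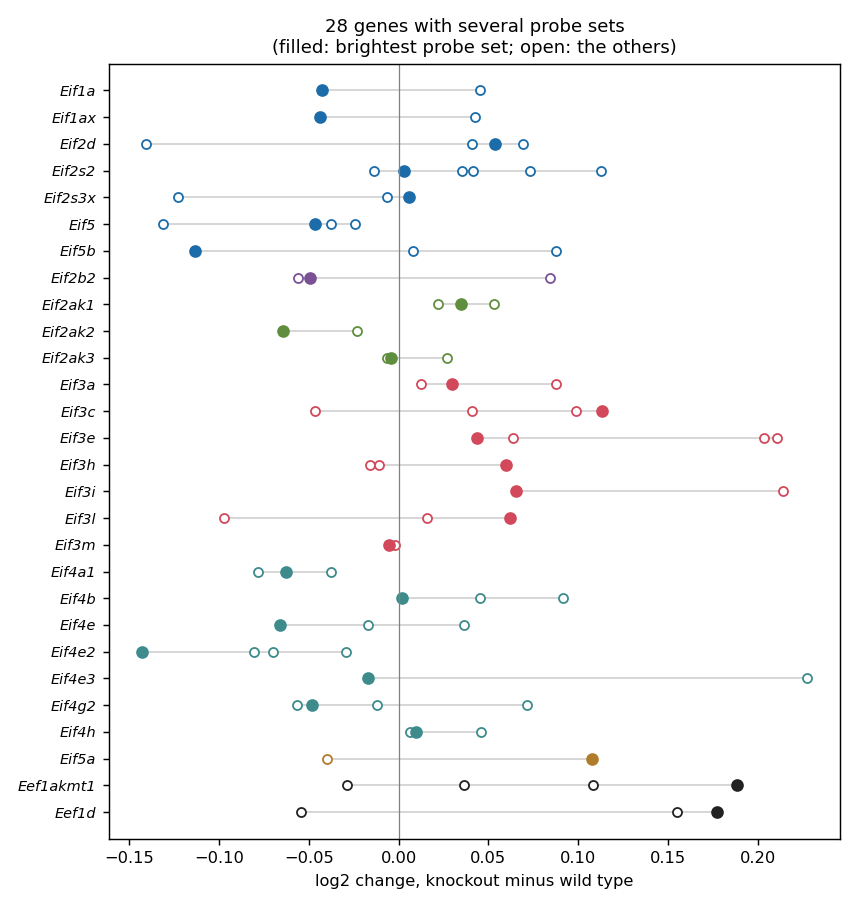
Log2 change, knockout minus wild type, of every probe set of the 28 genes with several (filled, brightest probe set; open, the others; grey line, their range). In 17 genes the probe sets lie on both sides of 0, and Eif4e3 has its brighter one at -0.017 and its dimmer one at 0.23.

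eIF2 carries the initiator tRNA to the start codon, and eIF1, eIF1A, eIF5 and eIF5B act with it there. The 9 genes of this step had changes from -0.11 to 0.086. Eif5b, the GTPase that joins the ribosomal subunits, had a lowest, median and highest value of 7.91, 8.23 and 8.34 in knockout, against 8.22, 8.26 and 8.38 in wild type. Its genotypes overlapped in the upper part, with 3 knockout arrays below every wild type array (-0.11 ± 0.0682, limma, adjusted p = 0.886), and its 2 dimmer probe sets lay above 0. Eif2d, which can bring tRNA to the ribosome without eIF2, had 8.37, 8.57 and 8.68 in knockout, against 8.35, 8.53 and 8.55 in wild type (0.054 ± 0.0568, limma, adjusted p = 0.951). The 4 probe sets of Eif2d ran from -0.14 to 0.069, with 3 above 0. All 4 probe sets of Eif5, the GTPase activator of eIF2, lay below 0, from -0.13 to -0.024. The X-linked eIF2 gamma gene Eif2s3x differed by 0.0060 ± 0.0566, and its Y-linked copy Eif2s3y by 0.086 ± 0.165, the widest SE of the 50.

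eIF2B reloads eIF2 with GTP, and phosphorylated eIF2 blocks it. Eif2b5, its catalytic subunit, had 9.25, 9.35 and 9.61 in knockout, against 9.20, 9.29 and 9.38 in wild type, with overlap (0.092 ± 0.0611, limma, adjusted p = 0.898). Eif2b2, a regulatory subunit, had 9.998, 10.17 and 10.20 in knockout, against 10.12, 10.17 and 10.28 in wild type, with overlap (-0.049 ± 0.0490, limma, adjusted p = 0.945). The 3 probe sets of Eif2b2 ran from -0.056 to 0.084, with 1 above 0.

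The kinases that phosphorylate eIF2 each answer to a stress. Eif2ak2, the kinase PKR that senses double-stranded RNA, averaged 7.03 ± 0.0680 in knockout and 7.09 ± 0.0828 in wild type (SD, n = 6 each), a difference of -0.064 ± 0.0508. Eif2ak4, the amino acid sensor GCN2, had 4.06, 4.17 and 4.28 in knockout, against 3.87, 4.10 and 4.36 in wild type (0.053 ± 0.0672). The genotypes overlapped in both genes (limma, adjusted p = 0.918 and 0.958). Eif2ak3, the endoplasmic reticulum kinase PERK, differed by -0.0044 ± 0.0526, and its sign turned under 4 alternatives that kept all 12 arrays. Eif2ak1, the heme-regulated kinase, differed by 0.035 ± 0.0553. Of the 4 kinases it alone lay above the median level of all tested probe sets, and Eif2ak4 was the dimmest.

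eIF5A helps the ribosome through stretches that form peptide bonds slowly, and eIF6 keeps large ribosomal subunits from joining too early. Eif5a had a lowest, median and highest value of 12.01, 12.09 and 12.26 in knockout, against 11.97, 11.99 and 12.04 in wild type. As for Eef2, 5 knockout arrays lay above every wild type array. The means were 12.10 ± 0.0857 in knockout and 12.00 ± 0.0301 in wild type (SD, n = 6 each), a difference of 0.11 ± 0.0476 (limma, adjusted p = 0.817). The dimmer Eif5a probe set differed by -0.040 ± 0.0559. Eif6 had 9.52, 9.61 and 9.83 in knockout, against 9.45, 9.57 and 9.64 in wild type (0.068 ± 0.0556, limma, adjusted p = 0.920).

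Prkag3 lies on chromosome 1, and so did 5 of the 50 genes. Counted in the gene order of the reference table over the 708 measured genes of that chromosome, Eef1b2 was 47 places before Prkag3 and Eif4e2 69 places after it. Eif5b was 120 places before, Eif2d 182 after and Eef1aknmt 312 after. Eef1b2 and Eif4e2, both at an unadjusted p below 0.05, were thus the closest of the 5, with opposite signs. Of the other 45 genes 29 had a change above 0 (median 0.030), and 4 were higher and 0 lower at an unadjusted p below 0.05. The shares of all genes at that level were 3.37% higher and 2.86% lower. Whether sequence linked to the knocked-out gene differs between these littermates was not tested.

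Many mRNAs of the translation machinery begin with a C and a run of pyrimidines, the terminal oligopyrimidine (TOP) start through which mTORC1 is known to control their translation. RefSeq starts (assembly GRCm38.p6) were found for 41 of the 50 genes and were read on the transcribed strand. The rule asked for a C at the start followed by 4 bases that were each C or T, and 2 genes met it, Eif2s3x and Eif3f, or 4.88%, against 2.51% of all 32851 promoters in the table and 3.04% of the 9882 measured genes. Both are shown, with 4 elongation genes described above for comparison. Each runs 20 bases before and 30 from the listed start, and capitals mark a C with 4 or more pyrimidines at the start or a C with 6 or more further on.
Eif2s3x (chrX:94212622-94212671, minus strand): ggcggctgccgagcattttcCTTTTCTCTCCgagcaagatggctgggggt
Eif3f (chr7:108934395-108934444, plus strand): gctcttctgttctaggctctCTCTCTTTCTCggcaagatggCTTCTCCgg
Eef2 (chr10:81176611-81176660, plus strand): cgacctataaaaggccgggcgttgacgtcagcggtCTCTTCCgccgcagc
Eef1a1 (chr9:78481695-78481744, minus strand): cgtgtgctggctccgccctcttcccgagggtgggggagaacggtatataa
Eef1a2 (chr2:181156986-181157035, minus strand): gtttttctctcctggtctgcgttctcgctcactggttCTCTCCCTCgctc
Eef1b2 (chr1:63176811-63176860, plus strand): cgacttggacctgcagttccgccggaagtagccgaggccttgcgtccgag

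In Eif3f and Eif2s3x pyrimidines also stood directly before the listed start, and in Eef2 and Eef1a2 the marked run lay some bases after it. In Eef1a1 and Eef1b2 no such run lay in the bases from the listed start on. The median change was 0.069 for the 2 genes that met the rule and 0.023 for the other 39, of which 24 had a change above 0. With a wider rule added after the values were seen, a C followed by 6 or more pyrimidines anywhere in the first 50 bases from the start, 16 of the 41 genes qualified (39.0%, against 23.5% of measured genes). Of these, 15 of 16 had a change above 0 (median 0.057), against 11 of the other 25 (median -0.0044). A gene qualified if any of its listed starts held a run, and in Eif5a, Eef2k and Eif4enif1 other listed starts held none. Under a further quantile normalization Eif2s3x, Eif3a, Eif4b, Eif4enif1 and Eef1a2, all among the 16, turned below 0. Eif2b2, also among the 16, was below 0 before and after that normalization, and the rest of the 16 stayed above 0. The count of the other 25 was not taken again under it. Over all measured genes the wider rule made little difference, with a median of -0.0023 in 2318 genes that met it and -0.0035 in those that did not. A run of letters in a listed start is not evidence of a TOP mRNA. Nor is the lack of a run evidence against one, since the base at which each transcript begins in this muscle was not read.

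Other genes of translation, in lists that left out the 50, were also read. Of the 13 measured of 16 genes of cap, poly(A) and kinase control, 8 had a change above 0 and 0 passed the threshold. Eif4ebp2, which encodes a repressor of eIF4E, had 9.73, 9.82 and 9.93 in knockout, against 9.62, 9.73 and 9.80 in wild type, and overlapped (0.12 ± 0.0501, limma, adjusted p = 0.810), while its other probe sets ran from -0.15 to 0.038. Paip1, a partner of the poly(A)-binding protein, had 6.52, 6.80 and 6.91 in knockout, against 6.74, 6.93 and 7.17 in wild type (-0.17 ± 0.0766, limma, adjusted p = 0.818). Each was the 1 gene of its direction at an unadjusted p below 0.05, beside 3.37% of all genes higher and 2.86% lower.

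All 8 genes of release, recycling and reinitiation were measured, and 4 lay above and 4 below 0, with 0 at an unadjusted p below 0.05. The smallest p were those of Denr, a reinitiation factor, at 0.16 ± 0.0793, and Gspt2, a release factor GTPase, at -0.097 ± 0.0540. The 5 mitochondrial translation factors measured of 10 all had changes below 0 (median -0.046), also with 0 at an unadjusted p below 0.05. Tufm, the mitochondrial elongation factor Tu, differed by -0.069 ± 0.0415 and Gfm2, a mitochondrial recycling factor, by -0.093 ± 0.0676. On the brightest probe set of each gene, the signs of these 5 and of the 10 Eef genes, factors and their enzymes and partners together, were thus opposite. The dimmer Gfm1 probe set lay at 0.022, while those of Tufm and Gfm2 lay below 0. Of the 5 dimmer elongation probe sets, 3 lay above 0, and 9 of the 10 Eef genes did under a further quantile normalization. The difference in sign was not tested.

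Phosphorylated eIF2 is known to raise translation of Atf4 and so its target genes. The list of 14 genes of this response, all measured, held Atf4 itself and other genes beside its targets. Of the 14, 9 had a change above 0 (median 0.022) and 0 passed the threshold. The 5 below 0 were Ppp1r15a (-0.099), Asns (-0.084), Psat1 (-0.080), Trib3 (-0.060) and Chac1 (-0.036). The 9 above 0 were Atf5, Ddit3, Ppp1r15b, Vldlr, Dnajc3, Phgdh, Atf4, Sesn2 and Nck1, from 0.013 for Nck1 to 0.14 for Atf5. Atf5, a transcription factor of the response, had 8.60, 8.86 and 8.94 in knockout, against 8.61, 8.67 and 8.75 in wild type. It was the 1 gene of the list at an unadjusted p below 0.05, beside 3.37% of all genes higher and 2.86% lower. Its lowest knockout value was under all wild type values (0.14 ± 0.0561, limma, adjusted p = 0.801).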

How the data were processed

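The 12 arrays were read from the deposited value table, which holds intensity values deposited by the authors. The submitters' processing notes name RMA, whose version is not given in the sources used here. The values run from 7.47 to 21828 on a linear scale, and log2 was taken here. RMA gives all arrays nearly 1 distribution, so a shift shared by most transcripts cannot be seen. Deposited array records, with scan and wash notes of other units, gave cage letters, fluidics modules and the hybridisation times from which the wash runs were inferred, and their genotype notes matched the labels on 12 of 12 arrays. The table held 22690 probe sets, of which 64 were array controls and not tested, and 20380 of the others named 1 gene in the platform annotation.

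Genotypes were compared with limma 3.58.1 (R 4.3.3), with lmFit and eBayes (two-sided, no term but genotype, Benjamini-Hochberg over 22626 probe sets, threshold 0.05). The test was checked on simulated data, whose changes were all larger than those of the 50 genes. That check does not show how often changes of their size are found. The number of arrays limits the precision. Background shares use 1 probe set a gene, the brightest, unless all probe sets are named. Genes named were those at an unadjusted p below 0.05, the 2 smallest p of each role or list and 15 listed factors where measured. The members, lists, rule and alternatives were chosen with earlier results of these data known. The alternatives were blocks for replicate number, wash run, cage and module, other scaling, a level filter, prior and array weights, averaged probe sets, log2(intensity + 16), each array left out, and no chromosome 1 genes.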

Additional observations from a re-analysis of the deposited data

Results flagged for a closer look

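In each of the 50 genes and both genotypes, the highest and lowest array was compared with the other 5 by Dixon's gap, which chance alone marks in about 1 in 20 groups. Of the 100 groups, 7 held an array far from the others, and 4 of the 7 were knockout 2, each time the lowest. For Eif1ax, an eIF1A gene, knockout 2 was at 8.84 while the other knockout arrays ran from 9.05 to 9.16. For Eif1b it was at 8.60, beside 8.77 to 8.86 in the others. For Eif3e it was at 10.96, beside 11.16 to 11.25, and for Eef1e1 at 8.38, beside 8.60 to 8.72. The other 3 lay in different arrays. Eef1aknmt was at 5.87 in knockout 6, beside 5.69 to 5.74 in the other knockout arrays. Eif4e3 was at 10.03 in wild type 5, beside 9.86 to 9.92, and Eif2s3y at 5.73 in wild type 3, beside 6.40 to 6.70 in the other wild type arrays. Without knockout 2, 30 of the 50 changes were above 0 and 0 passed the threshold.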

How the results depend on the processing

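The count of genes past an adjusted p of 0.05 was 0 under every alternative run, and the lowest adjusted p of any of the 24 named genes was 0.425. Of 549 values of named genes under alternatives, 537 kept their sign and 12 turned. The turns with all arrays kept were Eef1a2 (-0.0053) and Eif3a (-0.0054) under further quantile normalization, and Eif2ak3 under median centring (0.0073), the module block (0.014), further quantile normalization (0.0047) and the mean of its probe sets (0.0054). Leaving out 1 array at a time gave -0.0015 to 0.078 for Eef2k, -0.038 to 0.024 for Eif2ak3 and -0.049 to 0.0089 for Eif4a2. With the sign kept, it also moved Eif2ak4 (0.0057 to 0.10), Eif3a (0.0057 to 0.048), Eif2d (0.027 to 0.088), Eif2b5 (0.047 to 0.12), Eif6 (0.029 to 0.090), Eif3f (0.083 to 0.16), Eif4e (-0.097 to -0.025), Eif4a1 (-0.082 to -0.023), Eif2ak2 (-0.082 to -0.040), Eif2b2 (-0.063 to -0.021) and Eif5b (-0.15 to -0.063). The cause of these changes was not tested. Genes at an unadjusted p below 0.05 and higher, 5 in all, numbered 8 with the cage letter as a block and 3 to 8 without 1 array: 3 without knockout 5, wild type 2 or wild type 3, and 8 without wild type 5. Those lower, 1 in all, numbered 1 to 2, with 2 without knockout 1. Shares of all genes in these alternative fits were not taken, so the counts have no background beside them. The elongation median, 0.080, was 0.13 over the 8 of 10 genes above the median level, a filter that left out Eef1aknmt (0.042) and Eef2kmt (0.011). Without 1 array that median was 0.068 to 0.11.

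Further quantile normalization moved the genes above 0 to 26 of 50, the fluidics module block and median centring to 35 each, and leaving out 1 array gave 27 to 36, with medians of 0.015 to 0.042. The eIF2B median ran from -0.024 to 0.015 without 1 array, above 0 without knockout 1, knockout 3 or wild type 5, and that of the eIF2 kinases from -0.019 to 0.030, below 0 without knockout 4. The median of all tested probe sets was 0.0070 under median centring and -0.0016 under further quantile normalization. Genotypes shared replicate numbers 1 to 6, but deviations of same-numbered arrays correlated at -0.15 to 0.20 and 0 of 6 correlated best with their own number. The cage letter was the same in both genotypes at 6 of 6 numbers, so number and cage are tied, and whether the numbers pair the mice is not settled. With the replicate number as a block 0 genes passed (lowest adjusted p = 0.486) and 6 were higher at an unadjusted p below 0.05. For that fit too the share of all genes was not taken. Without 1 array the median of the cap, poly(A) and kinase control list ran from -0.0037 to 0.047 (below 0 without wild type 1 or wild type 3) and that of release and recycling from -0.024 to 0.030 (lowest without knockout 5). The phosphorylated eIF2 list ran from 0.0047 (without knockout 2) to 0.035 and the mitochondrial list from -0.057 to -0.029. The median of the 2 genes whose listed start met the rule of C and 4 pyrimidines ran from 0.041 (without knockout 5) to 0.092. Signals of dim probe sets such as Eif2ak4 are pulled towards 0 difference by RMA.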
